A study of Drosophila melanogaster with 24 samples.

Results

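The peaks described here lie in 5 stretches of the Drosophila melanogaster genome: the whole of chromosome 4 and the ends of 2L, 3L, 3R and X that face the centromere. A peak was taken when its midpoint, in build dm6, lay on chromosome 4, above 22000000 on 2L, above 22900000 on 3L, below 4200000 on 3R or above 22400000 on X. That rule found 780 of the 34747 peaks on the main arms (2.24%), of which 465 came from mock cells and 315 from knockdown cells. They were compared with the 27405 peaks on the rest of 2L, 3L, 3R and X.

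The study profiled 4 proteins by ChIP-seq in Kc167, a line of female embryonic Drosophila cells, to ask how far Isha is bound where Su(Hw), CP190 and Mod(mdg4)67.2, all insulator proteins, are bound, and whether those 3 need Isha for it. Both groups are Kc167 cells: one was labelled mock, and the other was transfected with 12 µg of Isha dsRNA, which triggers RNA interference, and kept for 5 days, per the labels. Each antibody and treatment had 2 replicate libraries, made in the case of Isha with different antisera, but a single deposited peak list joins both. The lists give positions only, so depth is unknown, no peak height or replicate spread could be measured, and the 95% intervals below (Wilson for shares, Newcombe for differences of shares, exact for ratios of densities) cover counting error alone.

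Pericentric heterochromatin is the compacted, repeat-rich chromatin beside centromeres, marked by methylated histone H3 lysine 9 and the protein HP1a, and it holds few genes, many of them long and still active. The small chromosome 4 of the fly carries similar marks over most of its length, yet its genes are transcribed. Su(Hw) is a zinc finger protein that binds DNA directly, and it brings the BTB domain partners CP190 and Mod(mdg4)67.2 to gypsy-type insulators. CP190 also joins other DNA-binding insulator factors and sits at many active promoters.

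All 4 proteins bound more thinly per megabase in the regions than along the arms. The 5 regions span 12.8 Mb, which is 11.8% of the length compared, but hold 210 protein-coding genes (1.9% of the genes compared). The 4 pericentric regions had 11.3 genes per Mb and the rest of the arms 114. Isha had 141 mock peaks in them, or 11.0 per Mb, against 37.0 per Mb on the rest of the arms, a ratio of 0.298 (0.25 to 0.353). Su(Hw) had the lowest ratio: its 71 mock peaks came to 5.56 per Mb against 42, a ratio of 0.132 (0.103 to 0.167). CP190 had 212 mock peaks, 16.6 per Mb against 67.8, a ratio of 0.245 (0.212 to 0.281). Mod(mdg4) had 41, or 3.21 per Mb against 10.9, a ratio of 0.295 (0.210 to 0.402). The intervals of Su(Hw) and of the other 3 proteins did not overlap.

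Counted per gene, the order turned round for 3 of the 4 proteins. Relative to the number of protein-coding genes, Isha peaks were 2.07 (1.74 to 2.45) times as frequent in the regions as on the rest of the arms, CP190 peaks 1.70 (1.48 to 1.95) times and Mod(mdg4) peaks 2.04 (1.46 to 2.79) times. Su(Hw) could not be told from the arms, with a ratio of 0.920 (0.717 to 1.16). How much of the region sequence can be mapped uniquely was not measured, and its part in the low density per megabase was not tested.

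The 5 regions differed among themselves. Mock Isha peaks numbered 30 on chromosome 4, 44 on 2L, 29 on 3L, 13 on 3R and 25 on X. Per megabase that is 23.2 on chromosome 4, 29.1 on 2L, 5.58 on 3L, 3.58 on 3R and 22.0 on X. The 2L region was the one whose Isha density could not be told from the rest of the arms, with a ratio of 0.785 (0.569 to 1.06), and it was 3.67 (2.66 to 4.93) times as dense per gene.

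Su(Hw) followed another order. Its 11 mock peaks on chromosome 4, 8 on 2L, 28 on 3L and 3 on 3R gave 8.5, 5.29, 5.39 and 0.826 per Mb, while its 21 peaks on X gave 18.4 per Mb. X was thus the densest of the 5 regions for Su(Hw), and 2L, the densest for Isha, was not. CP190 had 45, 39, 74, 16 and 38 mock peaks in the same order of regions, with densities of 34.8 on chromosome 4, 25.8 on 2L, 14.3 on 3L, 4.40 on 3R and 33.4 on X. Mod(mdg4) had 3, 6, 15, 8 and 9. The large 3R region, whose 13 annotated genes include the 1965.86 kb myosin gene Myo81F, was the sparsest for each of the 4 proteins.

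**Figure D1:**
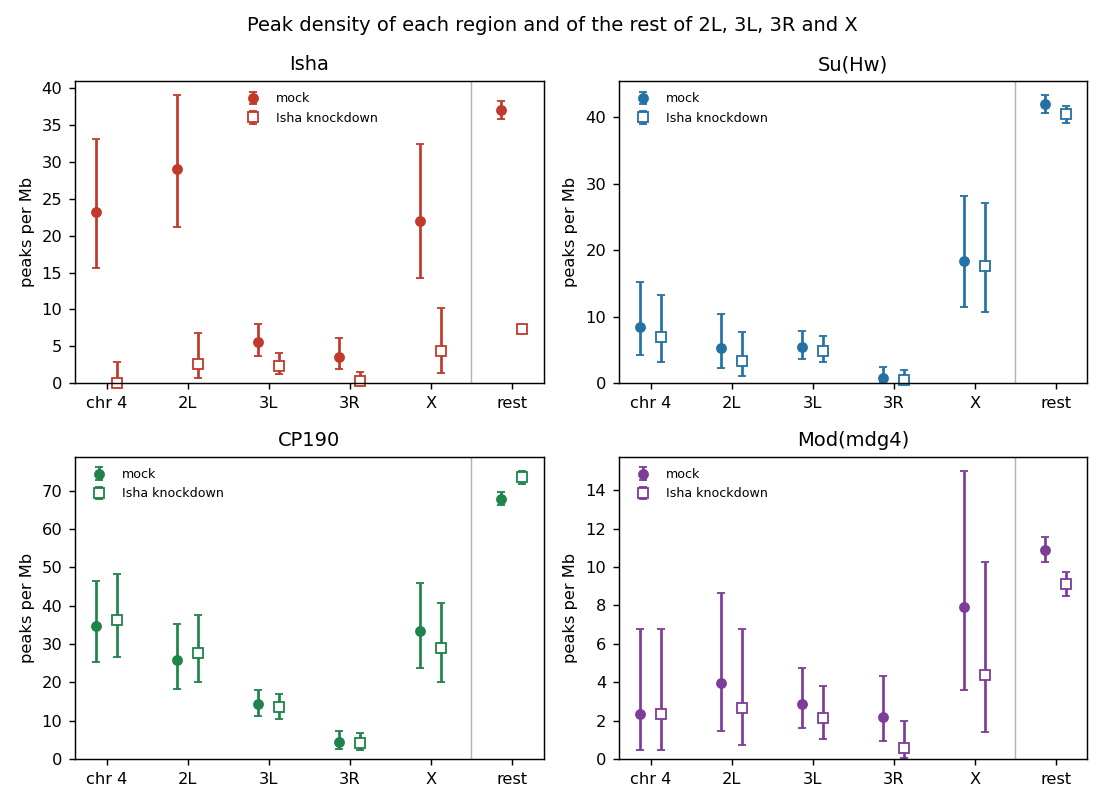
Peaks per Mb in each of the 5 regions and on the rest of 2L, 3L, 3R and X, for each protein in mock cells (filled circles) and after Isha knockdown (open squares). Bars are exact 95% Poisson intervals. Mock Isha reaches 29.1 per Mb on 2L and 3.58 on 3R, against 37.0 on the rest of the arms.

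The plot of densities shows lower mock values in every region than on the rest of the arms, and a spread among the regions for each protein. On chromosome 4, with 61.8 genes per Mb, the densest of the 5 in genes, the frequency per gene of CP190 (ratio 0.947, 0.690 to 1.27) and of Isha (1.16, 0.779 to 1.65) could not be told from the arms. Su(Hw) was less frequent per gene there (0.374, 0.187 to 0.670).

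The bounds themselves divide the 4 arms unevenly, as the profile of peaks per Mb across each bound shows. In the last Mb before the bound and the first Mb past it, Isha had 28 and then 32 mock peaks on 2L, 20 and then 6 on 3L, and 41 and then 12 on 3R. CP190 had 49 and then 33 on 2L, 64 and then 29 on 3L, and 60 and then 13 on 3R. On X the order was the reverse: the Mb before the bound held 3 Isha, 8 Su(Hw) and 11 CP190 peaks, and the first Mb past it held 25, 21 and 38. Both of these stretches of X hold similar numbers of genes, 34 before and 38 after. The gene count fell across the other bounds, from 182 to 32 on 2L, from 85 to 19 on 3L and from 97 to 11 on 3R.

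**Figure D2:**
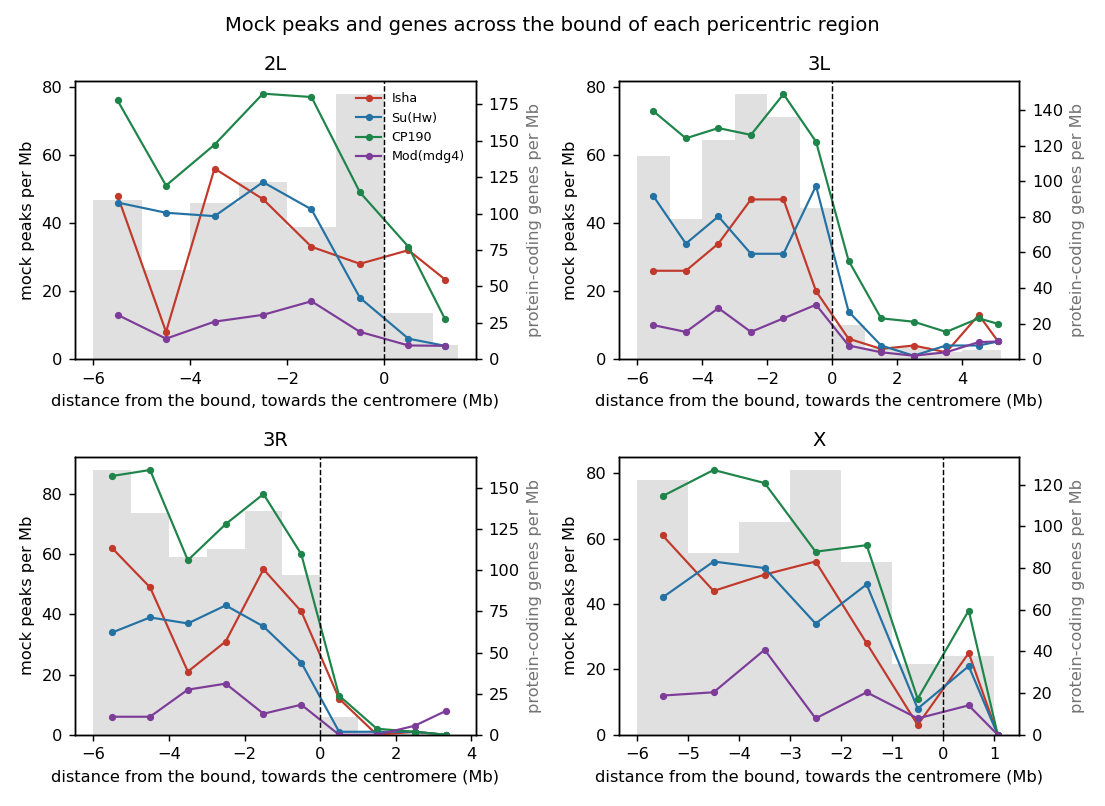
Mock peaks per Mb (lines, left axis) and protein-coding genes per Mb (grey, right axis) in bins of 1 Mb by distance from the bound of each pericentric region; positive distances run towards the centromere, and the last bin is shorter. Isha stays at 32 peaks in the first Mb inside the 2L bound and falls to 6 inside the 3L bound.

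Region peaks sat farther from gene ends. A peak was called near a gene end if 500 bp or less separated its midpoint from either end of a protein-coding gene. By this measure 33 of 141 mock Isha peaks were near one (23.4%), against 59.3% on the rest of the arms, a difference of -35.9 points (-42.3 to -28.1). For CP190 it was 57 of 212 (26.9%) against 50.2%, a difference of -23.4 points (-29.0 to -16.9). On chromosome 4, however, 22 of 45 CP190 peaks were near a gene end (48.9%), which did not differ detectably from the arms (-1.36 points, -15.3 to 12.8).

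Su(Hw), which elsewhere binds mostly away from gene ends, was near one at 5 of 71 region peaks (7.04% against 18%, -10.9 points, -15.1 to -2.43), and with windows of 250 or 1000 bp that interval included 0. The lower share came from the pericentric regions, with 2 of 60 (3.33%). On chromosome 4 it was 3 of 11 (27.3%), which could not be told from the arms (9.31 points, -8.26 to 38.6). The median distance from a mock peak to a gene end was 1039.5 bp for Isha in the regions against 393.5 bp outside. It was 3403 against 486.5 bp for CP190, 10842.5 against 3802.5 bp for Su(Hw) and 23196 against 2086 bp for Mod(mdg4). Genes are longer there, with a median span of 7525.5 bp in the regions and 2159 bp on the rest of the arms, and fewer.

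Seen from the genes of the 5 regions together, Isha and CP190 could not be told from the arms at a window of 1000 bp around the gene. Su(Hw) was lower. In mock cells 96 of the 210 region genes had Isha within 1000 bp (45.7%), against 48.7% of genes on the rest of the arms (-2.99 points, -9.66 to 3.83). CP190 was at 121 of 210 (57.6% against 61.2%, -3.61 points, -10.4 to 2.94). Su(Hw) was at 27 (12.9% against 23.3%, -10.4 points, -14.4 to -5.18), and Mod(mdg4) was at 13 (6.19% against 8.31%). When the gene body was left out and a peak within 500 bp of a gene end was asked for, Isha and CP190 were lower too, by differences of -12.2 and -7.14 points.

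Among 17 pericentric genes of known function, listed with earlier results of these data known, Isha lay within 1000 bp of 9 in mock cells, CP190 of 10, Su(Hw) of 4 and Mod(mdg4) of 3. Over all 130 pericentric genes the counts were 65 (50%) for Isha, 76 (58.5%) for CP190, 18 (13.8%) for Su(Hw) and 11 (8.46%) for Mod(mdg4). Isha and CP190 were together at the ribosomal protein genes RpL5 and RpL15, at su(f), which encodes an mRNA 3' end cleavage factor, and at cta, which encodes a G protein alpha subunit of gastrulation. Set1, a histone H3 lysine 4 methyltransferase gene, had Isha alone. CP190 without Isha was at lt, a vesicle trafficking gene, and, with Su(Hw), at nrm, a cell adhesion gene. All 4 proteins were at Dbp80, an RNA helicase gene, at Snap25, which encodes a synaptic fusion protein, and at Myo81F. These genes span 142.844, 225.026 and 1965.86 kb, and a peak anywhere in the gene counted. None was at Cht10 (chitinase), AGO3 (a piRNA pathway Argonaute), nvd (ecdysone synthesis), Parp1 (poly(ADP-ribose) polymerase) or Gfat1 (hexosamine synthesis).

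On chromosome 4, 31 of the 80 genes had a mock Isha peak and 45 a CP190 peak within 1000 bp. Of 13 listed transcription regulator genes 6 had Isha and 7 CP190: both were at ey (Pax6), pan (the TCF of the Wingless pathway) and pho (a Polycomb group DNA-binding protein), Isha alone at zfh2 and lgs (a Wingless coactivator), and Su(Hw) with CP190 at ci, the transcription factor of the Hedgehog pathway. The Pax2 gene sv was the one listed regulator with all 4. Of 15 signalling and neuronal genes 5 had Isha and 9 had CP190, among them PlexA and PlexB, which encode axon guidance receptors, and CaMKII, a calcium/calmodulin kinase gene. Of 9 genes listed as housekeeping, a list that also holds the signalling adaptor gene Crk, 4 had Isha and 7 had CP190. ATPsynbeta, Rad23 and Crk were among those with both. None of the 9 had Su(Hw) or Mod(mdg4), which were at 9 and 2 of all 80 genes.

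The widest mock peaks gave further places. For Isha these were a 7270 bp peak in Snap25, a 5462 bp peak at RpL21, a ribosomal protein gene of 2L, and a 4629 bp peak in Myo81F. The widest Isha peak of X, 3526 bp, lay in wap, and that of chromosome 4, 3281 bp, lay beside CG11076. For CP190 a 4876 bp peak lay beside Slmap on 2L and a 3912 bp peak at Tdg, a thymine DNA glycosylase gene of chromosome 4. Typical region Isha peaks were narrow: the median mock width was 1013 bp against 1545 bp on the rest of the arms. For CP190 the medians were close, at 1384.5 against 1404 bp.

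Sharing between the mock lists, counted at an overlap of at least 1 bp, differed from the arms for each protein. CP190 stood alone more often: 87 of its 212 region peaks overlapped none of the other 3 lists (41.0%), against 17.7% on the rest of the arms, a difference of 23.4 points (16.9 to 30.2). That share was 23 of 45 on chromosome 4, 38 of 74 on 3L and 10 of 16 on 3R, but 9 of 39 on 2L and 7 of 38 on X. Outside the regions it ranged from 17.1% to 18.1% among the 4 arms. CP190 met Su(Hw) at 63 of 212 peaks (29.7% against 48.7%, -18.9 points, -24.8 to -12.4).

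CP190 met Isha at 74 of 212 region peaks (34.9% against 37.4%, -2.48 points, -8.69 to 4.26), and this pooled value joined unlike regions. On 2L 28 of 39 CP190 peaks overlapped Isha (71.8%) and on 3L 14 of 74 did (18.9%), a difference of 52.9 points (34.2 to 66.6). Without the 2L region the difference from the arms was -10.8 points (-16.9 to -3.66). Of the regions that remained, only 3L was apart from the arms by itself (-18.5 points, -25.9 to -8.03). Chromosome 4 (12 of 45), 3R (5 of 16) and X (15 of 38) could not be told from them. From the side of Isha, 85 of 141 region peaks overlapped CP190 (60.3% against 67.8%, -7.56 points, -15.9 to 0.301), with 33 of 44 on 2L and 14 of 30 on chromosome 4. Isha overlapped neither CP190 nor another protein at 55 of 141 peaks (39.0% against 31.5%, 7.53 points, -0.285 to 15.9), 16 of them among the 30 on chromosome 4. It overlapped Mod(mdg4) at 11 of 141 (7.80% against 1.48%, 6.33 points, 2.91 to 12.0). These 11 include the Isha peaks of 5 region sites, described below, that had a peak in all 8 lists.

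Su(Hw) was rare in the regions, but where it was bound it was more often accompanied. CP190 overlapped 64 of its 71 region peaks (90.1% against 77.2%, 13 points, 3.75 to 18.1), and all 11 of those on chromosome 4. That interval included 0 when midpoints within 250 bp were asked for (7.58 points) or without 3L (11.2 points). Mod(mdg4) overlapped 29 of the 71 (40.8% against 24.2%, 16.6 points, 5.88 to 28.3), and Isha overlapped 11 (15.5% against 6.01%, 9.48 points, 2.82 to 19.7). Without 2L the difference with Isha was 5.10 points (-0.578 to 15.2). The Su(Hw) peaks with Isha and those with Mod(mdg4) include the ones at the 5 sites in all 8 lists.

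Mod(mdg4) peaks had fewer of their usual partners. Outside the regions 1024 of 1037 mock Mod(mdg4) peaks overlapped Su(Hw) (98.7%), and in them 29 of 41 did (70.7%), a difference of -28.0 points (-43.2 to -16.3). With CP190 the shares were 73.2% and 98.7% (-25.6 points, -40.7 to -14.4). With Isha they ran the other way, at 12 of 41 (29.3%) against 4.92% (24.4 points, 12.6 to 39.6). When at least 50% of both peaks had to overlap, the difference with Su(Hw) was 4.10 points (-10.5 to 19.3); by that rule 19 of 41 region peaks and 438 of 1037 outside met Su(Hw).

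**Figure D3:**
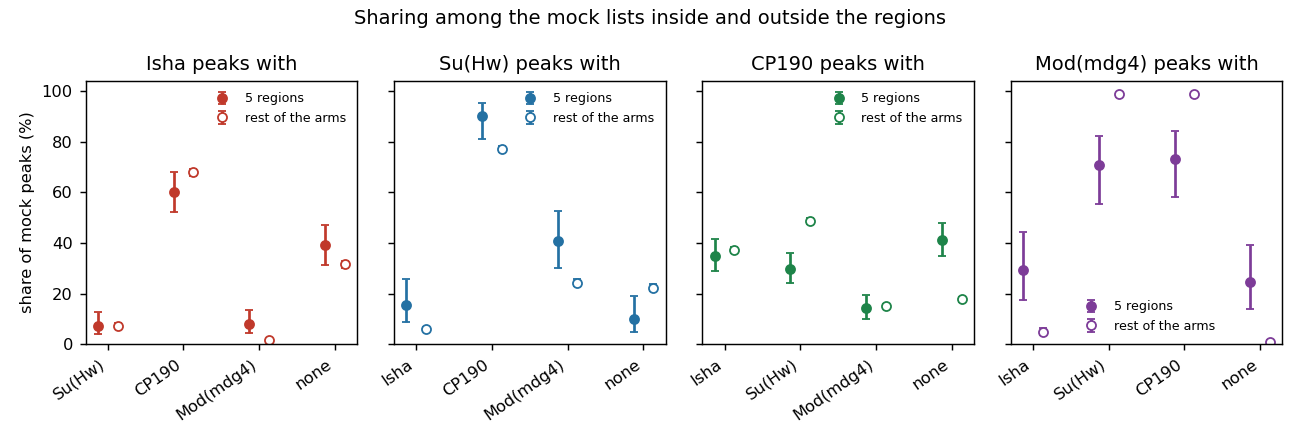
Share of mock peaks of each protein that overlap a mock peak of each other protein, or of none, in the 5 regions (filled) and on the rest of the same arms (open), in percent, with 95% Wilson intervals. CP190 with none is at 41.0% in the regions and 17.7% outside, and Mod(mdg4) with Su(Hw) is at 70.7% and 98.7%.

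The plot of sharing shows CP190 and Mod(mdg4) apart from the arms in the class without a partner, which for Mod(mdg4) was 24.4% in the regions and 0.868% outside. Su(Hw) was apart the other way, with 7 of 71 region peaks alone (9.86% against 22.3%, -12.5 points, -17.7 to -3.28).

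The 12 region Mod(mdg4) peaks without Su(Hw) lay in a few places. Inside Myo81F, which spans chr3R:567076-2532932, lay 7 of them, starting between 605154 and 1829514, with widths of 742, 564, 1470, 983, 559, 768 and 497 bp. None of these 7 overlapped a peak of any other list. Another 3 lay in a gene-poor stretch of 3L, 71318 to 200512 bp from CG40228, the nearest protein-coding gene. On 2L 1 lay in CG40006. On X 1 lay at chrX:23220164-23220769, 3326 bp from an annotated 28S rRNA pseudogene and far from any protein-coding gene. The median width of the 12 was 605.5 bp. Without the peaks inside Myo81F, an exclusion chosen after the data were seen, the difference in sharing with Su(Hw) was -13.9 points (-29.7 to -5.35).

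Merging overlapping peaks of all 8 lists gave 300 sites in the regions and 8450 on the rest of the arms. In mock cells CP190 was alone at 87 region sites (29.0% against 13.3%, 15.7 points, 10.8 to 21.1). Isha with CP190 held 55 (18.3% against 22.0%), and Isha alone held 54 (18% against 12.7%, 5.30 points, 1.30 to 10.1). The classes with Su(Hw) were smaller than outside: Su(Hw) with CP190 held 33 sites (11.0% against 22.2%), Su(Hw) with CP190 and Mod(mdg4) held 18 (6% against 10.7%), and Su(Hw) alone held 7 (2.33% against 10.5%). Sites with all 4 proteins were the exception, with 10 of 300 (3.33%) against 0.663% (2.67 points, 1.15 to 5.37). Of these 10, 5 had a peak in all 8 lists, and whether input coverage is raised there was not tested. The plot of site classes sets these shares side by side.

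**Figure D4:**
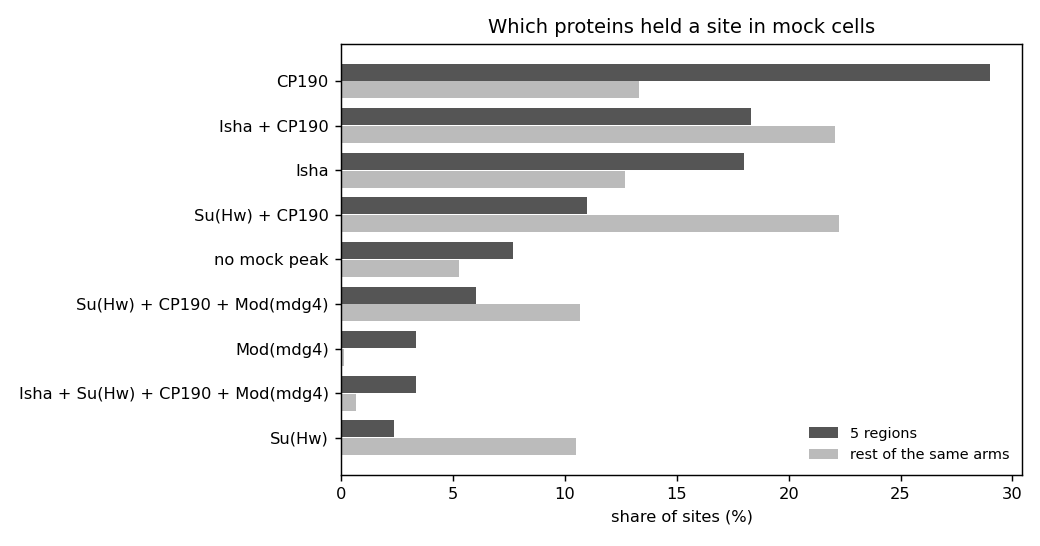
Share of merged sites, in percent, held in mock cells by each combination of proteins, for 300 sites in the 5 regions (dark) and 8450 sites on the rest of the same arms (light). Bars start at 0. Sites with CP190 alone make up 29.0% of the region sites and 13.3% of the others, and those with Su(Hw) and CP190 make up 11.0% and 22.2%.

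After knockdown, mock Isha peaks were kept, that is overlapped by at least 1 bp by a knockdown Isha peak, at 13 of 141 places in the regions (9.22%, 5.47 to 15.1). On the rest of the arms 676 of 3523 were kept (19.2%), and over all main arms 18.9% were. The difference between regions and rest was -9.97 points (-14.0 to -3.92). On chromosome 4 none of the 30 mock Isha peaks was kept, and no knockdown Isha peak was called anywhere on that chromosome; the Wilson interval of 0 of 30 reaches 11.4%. On the other regions 4 of 44 were kept on 2L, 3 of 29 on 3L, 1 of 13 on 3R and 5 of 25 on X. Chromosome 4 against the 4 pericentric regions together gave -11.7 points (-19.0 to 0.589).

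Peak width moved with the kept share of Isha. Kept Isha peaks were wide, with a median of 2241 bp in the regions and 2474.5 bp outside, and lost ones were narrow, at 981 and 1366 bp. Region Isha peaks were narrower to begin with, and within quartiles of width the difference between regions and rest was -2.69 points. No interval was computed for that value. Without regard to width, the interval of the difference included 0 when midpoints had to lie within 250 bp (-3.10 points, -6.25 to 2.28). It also did when the bounds were moved 500 kb into the arms (-5.63 points, -9.95 to 0.0503).

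The kept Isha peaks had company. All 13 were among the 85 that overlapped CP190 in mock cells (15.3%, against 23.0% outside). Of the 56 without CP190 none was kept (Wilson upper limit 6.42%), while outside the regions 126 of 1133 such peaks were (11.1%; difference -11.1 points, -13.1 to -4.48). With Su(Hw) 6 of 10 region peaks were kept (60%), against 23.3% on the rest of the arms (36.7 points, 7.39 to 60.3), and without Su(Hw) 7 of 131 (5.34% against 18.9%, -13.5 points, -16.6 to -8.08). Of those 6, 5 lay at sites with a peak in all 8 lists, which hold a knockdown Isha peak by definition.

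On 2L the kept Isha peaks lay in CG42748 and at Clamp, which encodes a zinc finger factor of X dosage compensation. On 2L they also lay 23908 bp from Tif-IA, an RNA polymerase I initiation factor gene, and 18897 bp from Tim23, a mitochondrial import gene. On 3L they lay in Snap25, at vtd, which encodes the cohesin subunit Rad21, and 205169 bp from CG40228. The single one on 3R lay in Myo81F. Those on X lay at Cp110, a centriole protein gene, in CG17600, in Rab21, a vesicle traffic GTPase gene, 11113 bp from CG14621 and 114074 bp from ATbp. The 22 knockdown Isha peaks marked 16 sites, since the 7270 bp peak of Snap25 was called as 5 shorter peaks after knockdown and the 4057 bp peak of vtd as 3. The widest mock Isha peaks that were lost were those of RpL21, Slmap, CG40228, wap and CG11076, from 5462 to 3281 bp wide. The lost peak of RpL21 also reached into Tif-IA itself.

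CP190 was kept at most region peaks but less often than on the arms. After knockdown 172 of 212 were kept (81.1%, 75.3 to 85.8), against 94.0% on the rest of the arms and 93.8% over all main arms, a difference of -12.9 points (-18.7 to -8.17). The interval of this difference stayed below 0 in every alternative for which one was computed. The 3L region had the lowest share, 52 of 74 (70.3%), against 34 of 39 on 2L (a difference of -16.9 points, -30.2 to -0.251). On 3R 13 of 16 were kept and on X 32 of 38. On chromosome 4, 41 of 45 were kept (91.1%), which could not be told from the arms (-2.92 points, -14.8 to 2.49). Among the 4 arms outside the regions the share ranged from 92.8% to 94.9%.

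CP190 peaks that stood alone were kept least. Of 87 such region peaks 61 were kept (70.1%), against 90.0% of those on the rest of the arms (-19.9 points, -30.3 to -11.1). Of 125 that overlapped another protein 111 were kept (88.8% against 94.9%, -6.10 points, -12.8 to -1.65). Lost CP190 peaks were narrower, with a median of 1038.5 bp against 1466.5 bp for kept ones, but within width quartiles the difference between regions and rest was still -12.5 points.

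The widest lost CP190 peaks of the regions lay in CG40228 (2860 bp wide), in CG12567 (2106 bp), 206376 bp from CG40228 (2013 bp), at PlexA (1924 bp) and at vtd (1912 bp). All 5 overlapped Isha in mock cells, although 66 of the 74 region CP190 peaks with Isha were kept (89.2% against 97.7%, -8.49 points, -17.6 to -3.21). At cta both Isha and CP190 were lost. At vtd the CP190 peak was lost while Isha was kept. At RpL5, RpL15, su(f), ey, pan, pho, CaMKII and ATPsynbeta CP190 had a peak within 1000 bp in both treatments and Isha in mock cells alone.

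Counted over the gene lists, mock Isha was at 9 pericentric genes and knockdown Isha at 3, namely vtd, Snap25 and Myo81F. CP190 went from 10 to 8 of these genes. Isha went from 6, 5 and 4 genes to 0 in each of the 3 chromosome 4 lists. CP190 went from 7 to 8 transcription regulators, from 9 to 8 signalling genes and from 7 to 7 genes listed as housekeeping. The regulator with a knockdown CP190 peak and no mock one was toy, a second Pax6 gene. Among all 80 genes of chromosome 4, Isha went from 31 to 0 and CP190 from 45 to 44. Among all 130 pericentric genes, Isha went from 65 to 13 and CP190 from 76 to 68. The lists thus followed all genes of their regions. On the rest of the arms Isha went from 48.7% to 14.3% of genes and CP190 from 61.2% to 63.5%. Over all 210 region genes a peak of any protein lay at 140 in mock cells (66.7% against 70.6%, -3.96 points, -10.6 to 2.13) and at 115 after knockdown (54.8% against 66.2%, -11.4 points, -18.2 to -4.77).

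Su(Hw) was kept at 58 of 71 region peaks (81.7%), against 89.8% on the rest of the arms and 89.9% over all main arms, a difference of -8.14 points (-18.7 to -0.789). The interval included 0 without 2L (-5.70 points), without 3L (-8.43 points) or without 3R (-6.01 points). On X 20 of 21 were kept, on 3L 23 of 28, on chromosome 4 9 of 11, on 2L 5 of 8 and on 3R 1 of 3. With Mod(mdg4) 27 of 29 were kept, against 964 of 966 on the rest of the arms (-6.69 points, -21.8 to -1.68). Without CP190 3 of 7 were, against 740 of 911 (-38.4 points, -65.5 to -6.16). The widest lost Su(Hw) peaks lay 23188 bp from Tif-IA, 1645 bp from fuss, in scro, an NK homeobox gene, in Asator, a kinase gene, and 5397 bp from Mes2. At the first of these Isha, CP190 and Mod(mdg4) had peaks in both treatments.

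Mod(mdg4) was kept at 21 of 41 region peaks (51.2%, 36.5 to 65.7), against 74.0% on the rest of the arms and 74% over all main arms, a difference of -22.7 points (-37.7 to -7.96). The kept share of Mod(mdg4) differed with its overlap with Su(Hw). With Su(Hw) 21 of 29 region peaks were kept (72.4% against 74.9%, -2.49 points, -20.8 to 10.7). Without it none of 12 was kept in the regions and none of 13 outside (Wilson upper limits 24.2% and 22.8%). On 3R, where 7 of the 8 mock peaks were the solitary ones inside Myo81F, 1 was kept, and without 3R the difference was -13.4 points (-30.5 to 1.61). The other regions kept 2 of 3 on chromosome 4, 4 of 6 on 2L, 9 of 15 on 3L and 5 of 9 on X.

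**Figure D5:**
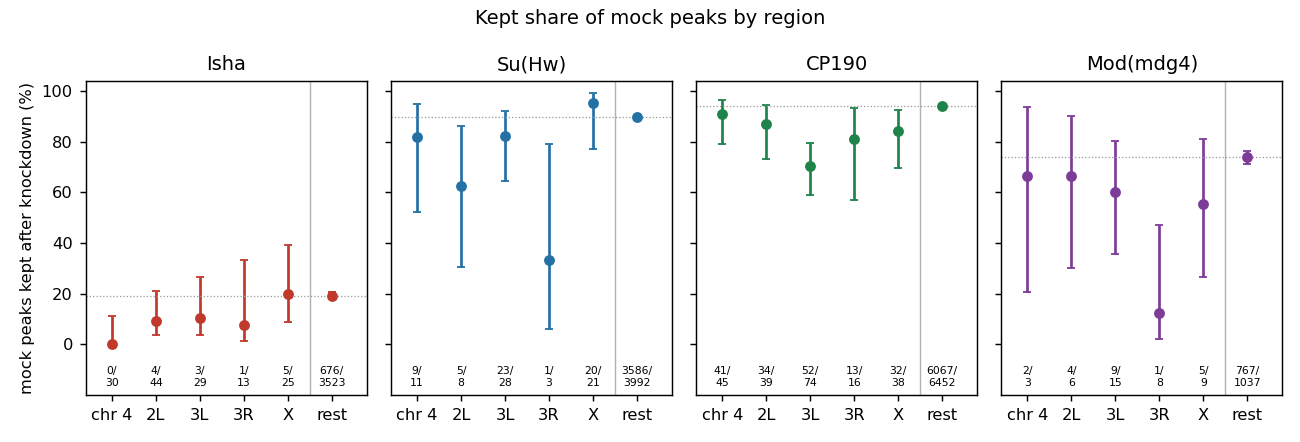
Share of mock peaks kept after Isha knockdown, in percent, by protein and region, with 95% Wilson intervals, and kept over mock counts printed under each point; the dotted line is the rest of 2L, 3L, 3R and X. Isha kept 0 of 30 peaks on chromosome 4 and 5 of 25 on X, and CP190 kept 52 of 74 on 3L.

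The plot of kept shares shows that chromosome 4 joined the lowest kept share of Isha to the highest kept share of CP190 among the 5 regions. Its CP190 share was 12.7 points (-0.417 to 21.4) above the 4 pericentric regions together, an interval that includes 0. For Su(Hw) and Mod(mdg4) most intervals by region are wide and overlap one another.

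Peaks called only after knockdown were few. For CP190, 22 of 207 knockdown peaks in the regions had no mock peak (10.6%), against 10.7% on the rest of the arms and 10.9% over all main arms; 12 of these 22 lay on 3L and none of the 33 on X was among them (Wilson upper limit 10.4%). The widest lay beside Taf3 (1648 bp wide), which encodes a subunit of the general factor TFIID, and 5206 bp from ttm3. Others lay at Spf45, a splicing factor gene, 20555 bp from CG41099 and in unc-13, which encodes a vesicle priming protein. For Su(Hw) 3 of 61 were new (4.92% against 4.81%, and 4.71% over all main arms), at Mes2, 73749 bp from CG40228 and in spok, a gene of ecdysone synthesis. For Mod(mdg4) 4 of 25 were new (16.0% against 11.1%, and 10.9% over all main arms).

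Knockdown Isha peaks without a mock peak numbered 3 of 22 (13.6% against 4.55%, and 4.4% over all main arms), a difference of 9.08 points whose interval, 0.0160 to 28.8, barely left out 0. All 3 lay on 3L: near RpL10 (608 bp), in lovit (739 bp) and near CG40228 (2106 bp). At lovit the place had a mock CP190 peak, and at the other sites no other list had one.

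Some sites of 3L around CG40228, vtd and Dbp80, chosen after their values were seen, show how differently neighbouring sites behaved. At chr3L:27068862-27069759 all 4 proteins had a mock peak and none a knockdown peak. At chr3L:27007917-27008817 Isha and Mod(mdg4) had mock peaks and Su(Hw) a knockdown peak. At chr3L:27171253-27174214, next to vtd, and at chr3L:27421405-27423711, at Dbp80, Su(Hw), CP190 and Mod(mdg4) had peaks in both treatments and Isha in neither.

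In all 8 lists there were 5 region sites of 300 (1.67%), against 16 of 8450 on the rest of the arms (0.189%, a difference of 1.48 points, 0.517 to 3.65). In Snap25, over chr3L:24168842-24176111, Su(Hw), CP190 and Mod(mdg4) each had 2 peaks in both treatments, of 4724 to 4776 bp and 2003 to 2056 bp. In Myo81F, over chr3R:2084918-2089546, all 8 peaks were 4373 to 4629 bp wide. At the other 3 sites the peaks of the 8 lists had similar bounds too. Over chr2L:23331772-23333095, 8241 bp from an annotated pseudogene and with Tim23 the nearest protein-coding gene, widths were 1084 to 1324 bp. On X they were 688 to 1019 bp over chrX:22432605-22433623, near CG14621, and 667 to 926 bp over chrX:23221943-23222868, where the mock Isha peak lay 5265 bp from the 28S rRNA pseudogene. Input libraries were sequenced beside these lists, but no signal of theirs was used here, so whether input coverage is raised at these sites was not tested.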

How the data were processed

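ChIP-seq was made with 4 antibodies in mock and Isha knockdown Kc167 cells, with inputs: 24 libraries in 12 groups of 2 replicates. Per the submitters' processing notes the authors used Bowtie2 2.4.1, SAMtools 1.9, Picard 2.22.2 and build dm6. The caller, its threshold and the joining of replicates were not given in the sources used here. As deposited by the authors, the data are 8 peak lists with chromosome, start and end only, 1 per antibody and treatment. The name "SwHw" was read as Su(Hw). Peaks called lost may have weakened past the threshold or been missed in 1 replicate. With 1 list per group there was no replicate check and no p-value was computed. Whether the replicates were separate cultures is not stated.

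The members, gene lists and alternatives were chosen with earlier results of these data known. Peaks were assigned by midpoint and compared at an overlap of 1 bp or more. Alternatives were 50% reciprocal overlap, midpoints within 250 bp, moved bounds, width quartiles, each region left out, densities per gene and per base covered, and other gene windows. Gene spans (13922 protein-coding genes on the main arms) were those of RefSeq for Release 6 plus ISO1 MT, the assembly of dm6; that table gives no strand, so both gene ends were used. Region lengths run to the outermost annotated gene or peak. Intervals treat peaks as independent, which neighbouring peaks are not. Named genes were those of the lists, the 3 widest mock peaks per region, all knockdown Isha peaks up to the 15 widest, the 5 widest lost and gained peaks, and the sites in all 8 lists. RpL10, lovit, CG42748 and CG40006 fall outside that rule and were chosen after their values were seen. Python 3.11.15 with NumPy 2.4.6 and SciPy 1.17.1 was used, with matplotlib 3.10.9 for figures, and the overlap and interval steps were tested on simulated data.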

Additional observations from a re-analysis of the deposited data

Results flagged for a closer look

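Peaks on Y lie outside the arms compared, in a line labelled female. The mock Su(Hw) list held 5 peaks there and the knockdown Su(Hw) list also held 5. The other mock lists held 3 each, and after knockdown Isha held 1, CP190 held 3 and Mod(mdg4) held 2. Each of the 8 lists had a peak within chrY:1641991-1642930. Y is heterochromatic, as the 5 regions largely are; what gave these peaks was not tested.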

How the results depend on the processing

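No paired analysis was possible because each list joins both replicates. Over 27 results and 225 alternative values, 193 counted as the same, 18 no longer passed, 8 newly passed, 2 moved and 4 reversed. A value passed when its interval left out no difference. The same meant passing, or not passing, as in the main run, so a direction could change where neither passed. Values without an interval counted as the same inside the main interval and as moved outside it. No cause was tested. The alternatives without the sites in all 8 lists and without the peaks inside Myo81F were chosen after the data were seen. Leaving out the former removes only peaks that are kept and shared by definition, so the direction of that shift is built in. Per gene, the density ratios were 2.07 for Isha, 1.70 for CP190, 2.04 for Mod(mdg4) and 0.920 for Su(Hw), and per base covered 0.222 for Isha. For the kept share, regions minus rest in points, Isha gave -3.10 by midpoints, -2.69 within width quartiles and -5.63 with bounds moved into the arm. Su(Hw) gave -4.00 by midpoints, -5.70 without 2L, -8.43 without 3L, -6.01 without 3R and -5.96 with bounds moved towards the centromere. Mod(mdg4) gave -13.4 without 3R and also without Myo81F. For sharing, Isha with CP190 passed at -8.07 by reciprocal overlap, -14.2 without 2L, -10.1 without X, -10.5 with bounds moved towards the centromere and -8.82 without the sites in all 8 lists, and CP190 with Isha at -10.8 without 2L. Su(Hw) with Isha gave 5.10 without 2L and 2.11 without the sites in all 8 lists, and Su(Hw) with CP190 gave 7.58 by midpoints and 11.2 without 3L. Mod(mdg4) with Su(Hw) gave 4.10 by reciprocal overlap and -9.49 by midpoints, and Mod(mdg4) with CP190 gave -2.79 by reciprocal overlap. Genes with a peak within 500 bp of an end gave -12.2 for Isha and -7.14 for CP190. Su(Hw) peaks near gene ends gave -5.69 at 250 bp and -10.2 at 1000 bp. Densities per mappable base were not run, since no genome sequence was used here.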
